A study of Mus musculus with 8 samples.

Results

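Collagen genes were taken as every gene whose symbol is Col, a type number, a and a chain number. The rule found 44 genes in the macrophage table of 47643 genes and the same 44 in the plasma cell table of 52458 genes. A gene was counted as detected in a library at 1 CPM (CPM is its count scaled to the library's total count) or more. By this measure 24 of the 44 were detected in at least 1 of the 6 macrophage libraries, 5 in at least 1 of the 2 plasma cell libraries, and 26 in at least 1 of all 8. Immunoglobulin genes held 67.3% and 70.4% of the counts of the plasma cell libraries. With these genes left out of the totals, 24 collagen genes were detected in macrophage and 11 in plasma cell libraries.

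The libraries hold bulk RNA of cells sorted from the bone marrow of B6 mice labelled WT, with no treatment and no stated age. GFP+ Vk*MYC myeloma cells had been injected into the tibia of the tumour-bearing mice, and macrophages with high F4/80 and low CD11b were taken by sorting. The groups are tumour-associated macrophages (TAM) touching myeloma, sorted as GFP+ and called contact TAM here, TAM away from it, sorted as GFP- and called non-contact TAM, and macrophages of naive mice, with 2 libraries each. The 2 plasma cell libraries are labelled only as plasma cells, and which of them, if any, are myeloma is not stated per sample. The TAM libraries are labelled mouse 1 or mouse 2 and the naive ones carry only a number, and how many animals went into a library is not stated. P-values measure the spread of these libraries, which for naive macrophages may be technical.

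Collagens are secreted proteins of the extracellular matrix whose chains wind into a triple helix. Fibrillar collagens form the cables of bone, skin and cartilage and are mostly made by osteoblasts, fibroblasts and chondrocytes. Fibril-associated collagens with interrupted triple helices, a class that includes Col14a1 and Col19a1, sit on the surface of those cables, and type IV collagen forms the sheet of basement membranes, which endothelial cells and other cells lay down.

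Of the 44 genes, 35 had a RefSeq promoter window. In contact TAM, 4 genes had both libraries below both libraries of each of the other macrophage groups and were tested (Col11a2, Col14a1, Col1a2 and Col20a1). Of all genes tested, 22.3% lay lower without overlap than non-contact TAM and 36.7% lower than naive macrophages. The share below both groups was not computed, so the 4 are not set apart from other genes by this. The windows of those with an entry are shown because these genes lay on the same side. Each holds the 250 bases before the RefSeq start in GRCm38.p6, on the plus strand, at chr17:34038888-34039137 for Col11a2, chr6:4505368-4505617 for Col1a2 and chr2:180986285-180986534 for Col20a1, with matches to 3 motifs in capitals.
Col11a2: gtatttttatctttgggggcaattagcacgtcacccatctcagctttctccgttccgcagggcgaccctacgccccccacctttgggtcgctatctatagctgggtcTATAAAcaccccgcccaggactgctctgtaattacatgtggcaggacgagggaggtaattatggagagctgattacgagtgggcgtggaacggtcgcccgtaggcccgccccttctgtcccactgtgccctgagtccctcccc
Col1a2: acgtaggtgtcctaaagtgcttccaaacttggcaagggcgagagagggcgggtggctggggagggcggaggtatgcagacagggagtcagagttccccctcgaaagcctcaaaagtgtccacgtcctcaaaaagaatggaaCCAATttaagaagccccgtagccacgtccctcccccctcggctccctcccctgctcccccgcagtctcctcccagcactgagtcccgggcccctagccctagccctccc
Col20a1: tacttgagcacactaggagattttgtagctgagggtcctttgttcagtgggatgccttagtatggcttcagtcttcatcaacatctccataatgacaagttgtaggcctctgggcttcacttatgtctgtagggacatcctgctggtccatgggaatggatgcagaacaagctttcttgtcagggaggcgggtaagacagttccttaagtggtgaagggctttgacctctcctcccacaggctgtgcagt
The motifs searched on both strands were TATAAA (the TATA box), CCAAT (the CCAAT box) and GAGGAA (a core bound by PU.1, a transcription factor of the macrophage lineage), and their letters do not overlap within a match. The Col11a2 window held TATAAA at position -143, the Col1a2 window held CCAAT at -109, and the Col20a1 window held none, counted from the start. TATAAA stood in 13.16% of the 38 windows of collagen genes and in 12.37% of 32851 windows of all genes. CCAAT stood in 34.21% of the collagen windows and 33.85% of all windows, and GAGGAA in 26.32% and 23.25%. A match describes the letters of a window and no more.

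Total counts were 28887725 to 46873056 per macrophage library, and 81792139 and 38343783 in the plasma cell libraries. All 16 macrophage markers, among them Adgre1, the gene of F4/80, had counts in every macrophage library, with a summed level of 6475 to 7634 CPM in contact TAM, 17322 to 28678 CPM in non-contact TAM and 16201 to 32712 CPM in naive macrophages. The 11 neutrophil markers summed to 28287 to 50483, 9247 to 17885 and 47977 to 74908 CPM in the same groups. The second library of non-contact TAM was the highest of the 6 for 25.64% of all genes at 1 CPM or more. For genes whose highest level was 1 to 20 CPM the share was 34.5%. It was the highest for 11 of 12 endothelial, 8 of 9 megakaryocyte, 8 of 10 plasma cell and 7 of 12 marrow reticular stroma markers. Nearer those shares were 5 of 10 detected osteoblast, 5 of 12 fibroblast, 3 of 9 pericyte and smooth muscle and 2 of 7 detected Schwann cell markers. For macrophage markers it was the highest for 0 of 16, and for neutrophil markers for 0 of 11. Immunoglobulin genes held 9.13% of its counts, against at most 0.632% in the other macrophage libraries. The libraries labelled mouse 2 are not from 1 animal, since Y-linked Ddx3y was at 88.4 CPM in the second library of contact TAM and at 0.258 CPM in the second of non-contact TAM. Xist, an RNA of female cells, was at 0 in the former and at 17.5 to 53.8 CPM in the other macrophage libraries. Sex was thus uneven in every comparison with contact TAM, and its part was not tested.

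Most of the collagen counts of naive macrophages and non-contact TAM came from a single gene, and 9 of the 24 detected collagen genes were detected in a single macrophage library. The 44 genes together summed to 30.2 and 21.9 CPM in contact TAM, to 164 and 340 CPM in non-contact TAM, and to 447 and 204 CPM in naive macrophages. Col14a1 made up 20.01% and 26.6% of the collagen counts in contact TAM, 70.3% and 60.5% in non-contact TAM, and 82.7% and 75.8% in naive macrophages. The 95% Wilson intervals of these shares ran from 18.0% to 22.2% for the lowest and from 82.1% to 83.2% for the highest, and cover counting error only. The naive libraries and those of non-contact TAM were thus dominated by Col14a1, and those of contact TAM were not.

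The number of collagen genes at 1 CPM or more was 7 and 6 in contact TAM, 6 and 22 in non-contact TAM, and 8 and 11 in naive macrophages. The second library of non-contact TAM alone lifted the count of detected genes, which was 15 without it and 24 with it. Among the macrophage libraries 9 genes were detected only there (Col10a1, Col11a1, Col22a1, Col2a1, Col3a1, Col5a2, Col6a1, Col7a1 and Col8a1), which is 37.5% of the detected collagen genes, against 5.11% of all 13934 detected genes. The latter include highly expressed genes, and this share was not computed for genes of a like level, so the contrast is in part one of level. The second library of non-contact TAM was the highest for 16 of the 24. That compares with 25.64% of all genes at 1 CPM or more and 34.5% of genes whose highest level was 1 to 20 CPM. The 9 genes detected only there are among the 16 through the detection limit itself, so the 2 counts are not separate results. Only Col14a1 and Col11a2 reached 1 CPM in all 6 macrophage libraries.

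**Figure D1:**
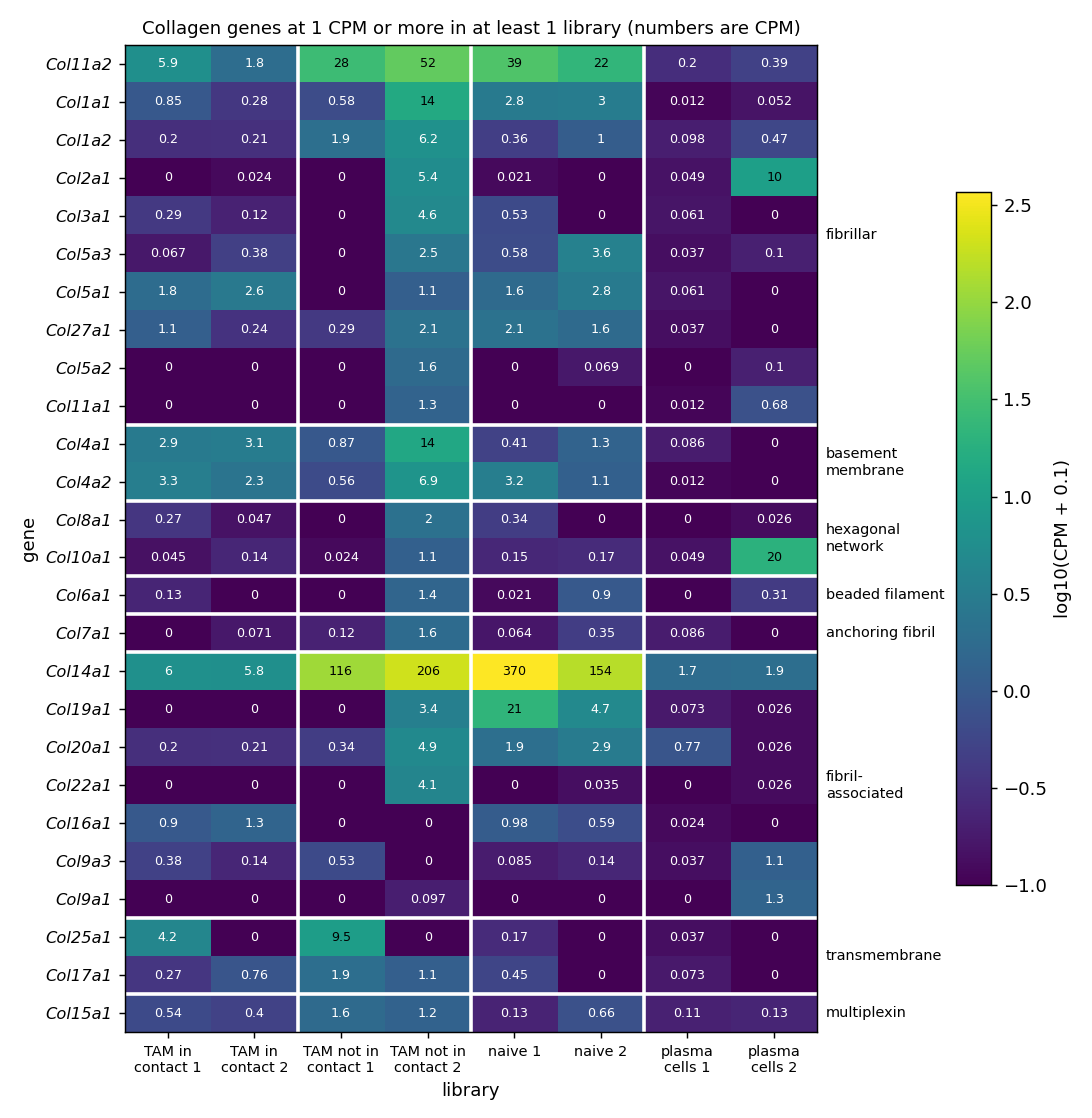
Each row is a collagen gene at 1 CPM or more in at least 1 of the 8 libraries, grouped by class, and each column is a library. Colour is log10(CPM + 0.1) and the printed numbers are CPM. Col14a1 and Col11a2 are high in naive macrophages and non-contact TAM, and Col2a1 and Col10a1 stand out in the second plasma cell library. Among macrophage libraries, the low-level fibrillar genes other than Col5a1 and Col5a3 are highest in the second of non-contact TAM. For Col27a1 the margin is small (2.13 CPM against 2.09 CPM in the first naive library).

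The other 18 genes stayed below 1 CPM in all 8 libraries: Col12a1, Col13a1, Col18a1, Col23a1, Col24a1, Col26a1, Col28a1, Col4a3, Col4a4, Col4a5, Col4a6, Col6a2, Col6a3, Col6a4, Col6a5, Col6a6, Col8a2 and Col9a2. Their highest levels ran from 0 to 0.939 CPM, and Col6a4 and Col6a5 had no count in any library. The detected genes nearest the limit were Col9a3 at 1.15 CPM and Col11a1 at 1.29 CPM in their highest library, and the undetected ones nearest it were Col9a2 at 0.939 CPM and Col18a1 at 0.870 CPM. A count of 0 allows up to 3 counts, which is 0.0640 to 0.104 CPM in the macrophage libraries.

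Col14a1 encodes the chain of collagen XIV, a fibril-associated collagen that binds collagen fibrils (chr15:55307750-55520803, plus strand, GENCODE M21 on GRCm38). Its level was 6.05 and 5.81 CPM in contact TAM, 116 and 206 CPM in non-contact TAM, and 370 and 154 CPM in naive macrophages. Both libraries of contact TAM lay far below the other 4, which overlapped between non-contact TAM and naive macrophages. The group means were 5.93 ± 0.164 CPM in contact TAM, 161 ± 63.8 CPM in non-contact TAM and 262 ± 152 CPM in naive macrophages (SD, n = 2 each). In bulk RNA, fewer cells that express a gene and less RNA of it per cell cannot be told apart.

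Col14a1 fell in contact TAM over naive macrophages, with a log2 fold change of -5.31 ± 0.57 (SE) and an adjusted p of 0.0493 by edgeR's quasi-likelihood test. This was 1 call among the 25 collagen genes tested, in a comparison where 0.219% of all 15522 genes tested were called. The call lies at the threshold: 7 of 16 alternative fits also made it, and the adjusted p ran from 1.07e-28 to 0.45 over them. By edgeR it was lost without the first (adjusted p 0.184) or second (0.450) library of contact TAM and without the first (0.193) or second (0.0700) naive library. By limma-voom the adjusted p was 0.107. The log2 fold change stayed between -5.80 and -4.53 over these fits. Against non-contact TAM the log2 fold change was -4.74 ± 0.56, and edgeR's adjusted p of 0.0729 did not pass, though it passed without the first library of non-contact TAM (0.0117). DESeq2 gave adjusted p-values of 1.86e-20 against naive macrophages and 6.05e-16 against non-contact TAM. Non-contact TAM over naive macrophages gave -0.58 ± 0.48 with an adjusted p of 0.632 by edgeR, and turned to 0.18 without the first naive library.

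Col14a1 moved with some macrophage markers and not with others. Its counts were 12.95% and 23.69% of those of Mrc1, the mannose receptor, in contact TAM, 18.21% and 27.33% in non-contact TAM, 19.83% and 14.3% in naive macrophages, and 19.89% and 17.97% in the plasma cell libraries. Against Vcam1, an adhesion molecule of resident marrow macrophages, they were 2.33% and 3.79%, 2.29% and 3.55%, 4.28% and 3.56%, and 4.89% and 4.30% in the same order. Over the 8 libraries these ratios spread 2.11-fold and 2.14-fold, the smallest spreads among the 16 macrophage markers, and both partners were picked after the ratios were seen. For the other 14 the spread was 4.12-fold to 147-fold, with Csf1r, the receptor of macrophage colony-stimulating factor, at the top: Col14a1 was 0.252% and 0.133% of Csf1r in contact TAM, and 19.6% and 13.8% in naive macrophages. Mrc1 itself fell in contact TAM over naive macrophages by edgeR, with a log2 fold change of -5.22 ± 0.54 and an adjusted p of 0.0442.

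Markers of other cells differed as well, and not all in 1 direction. The 9 monocyte markers summed to 7979 and 6819 CPM in contact TAM, 2224 and 4180 CPM in non-contact TAM, and 4249 and 7170 CPM in naive macrophages, and none was at 0. In contact TAM over naive macrophages 7 of the 9 had a positive log2 fold change (median 1.51), with 0 called by edgeR and 4 by DESeq2, all higher, where DESeq2 called 3.07% of all genes higher. Over non-contact TAM 9 of 9 were positive (median 1.41), with 0 called by edgeR and 4 by DESeq2, all higher. There DESeq2 called 3.28% of all genes higher. The median log2 fold change of all genes was 0.00 over naive macrophages and -0.00 over non-contact TAM. The monocyte sums of contact TAM and naive macrophages overlapped. Over naive macrophages 0 of 11 neutrophil markers (median -0.74) and 0 of 9 B cell markers (median -3.02) were positive. Of the 9 eosinophil markers 3 were (median -0.18). Over non-contact TAM 11 of 11 neutrophil, 6 of 9 B cell and 7 of 9 eosinophil markers were positive. Of the 16 macrophage markers 15 had a negative log2 fold change in each of these comparisons, with medians of -2.74 over naive macrophages and -2.64 over non-contact TAM. Their part in the Col14a1 difference was not tested.

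**Figure D2:**
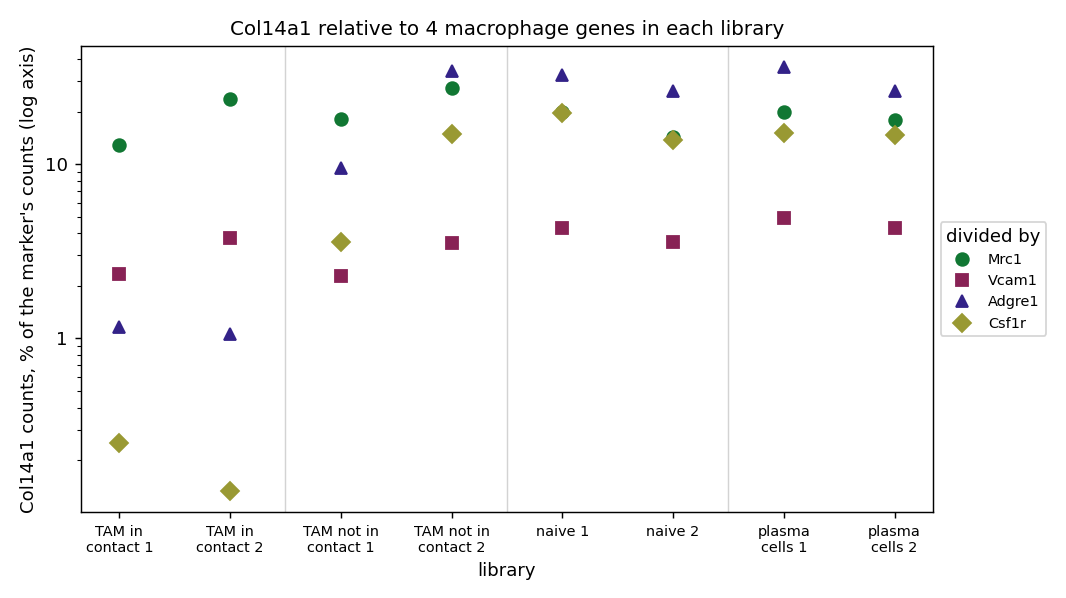
Col14a1 counts as a percentage of the counts of Mrc1, Vcam1, Adgre1 and Csf1r in each of the 8 libraries, on a log axis. The points of Mrc1 and Vcam1 stay within 12.95% to 27.33% and 2.29% to 4.89%, and those of Adgre1 and Csf1r drop in contact TAM.

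Col11a2, a chain of the minor fibrillar collagen XI best known from cartilage (chr17:34039437-34066685, plus strand), had the second highest group mean per length in every macrophage group. In the second library of contact TAM it was at 0.262 CPM per kb of exon. That lay below Col4a1 (0.413), Col4a2 (0.341) and Col5a1 (0.310) as well as Col14a1. Col11a2 was at 5.93 and 1.80 CPM in contact TAM, 28.2 and 52.1 CPM in non-contact TAM, and 38.6 and 22.2 CPM in naive macrophages. Both libraries of contact TAM lay below the other 4, and non-contact TAM overlapped naive macrophages. The log2 fold change was -3.37 ± 0.66 over non-contact TAM and -2.83 ± 0.64 over naive macrophages, and neither passed edgeR's test (adjusted p 0.148 and 0.172). DESeq2 called both, with adjusted p-values of 2.30e-05 and 5.33e-04. Its partner chain Col11a1 was at 0 in 5 macrophage libraries and at 1.29 CPM in the second of non-contact TAM. Rxrb, a nuclear receptor gene that ends upstream of Col11a2 on the same strand, reached 162 CPM, and the part of reads running on from it was not tested.

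Col19a1 encodes the chain of collagen XIX, a fibril-associated collagen of basement membrane zones. It was at 0 in both libraries of contact TAM, at 0 and 3.38 CPM in non-contact TAM, and at 21.2 and 4.71 CPM in naive macrophages. The naive libraries lay above the other 4, and contact TAM was at least 187-fold lower than naive macrophages, with 3 counts per library as the floor. The first naive library alone held most of the gene's counts, and edgeR called no comparison of it.

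Col20a1, another fibril-associated collagen, was at 0.202 and 0.214 CPM in contact TAM, 0.339 and 4.86 CPM in non-contact TAM, and 1.90 and 2.91 CPM in naive macrophages. Contact TAM was lowest without overlap, but its log2 fold changes of -3.58 ± 1.28 over non-contact TAM and -3.35 ± 1.27 over naive macrophages did not pass edgeR's test (adjusted p 0.246 and 0.320). An overlapping transcript on the same strand shares 79 exon bases with Col20a1 and reached 3.35 CPM, so the reads of those bases could have been split. Col16a1, a fibril-associated collagen of several connective tissues, showed another pattern, with 0.899 and 1.33 CPM in contact TAM, 0 in both libraries of non-contact TAM, and 0.981 and 0.588 CPM in naive macrophages. Contact TAM was at least 13.2-fold higher than non-contact TAM, and non-contact TAM at least 9.28-fold lower than naive macrophages. Col16a1 was thus the only detected member of its class without a count in non-contact TAM. Col22a1, known from tissue junctions such as that of muscle and tendon, was at 4.06 CPM in the second library of non-contact TAM and at most 0.0346 CPM in the other 5.

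**Figure D3:**
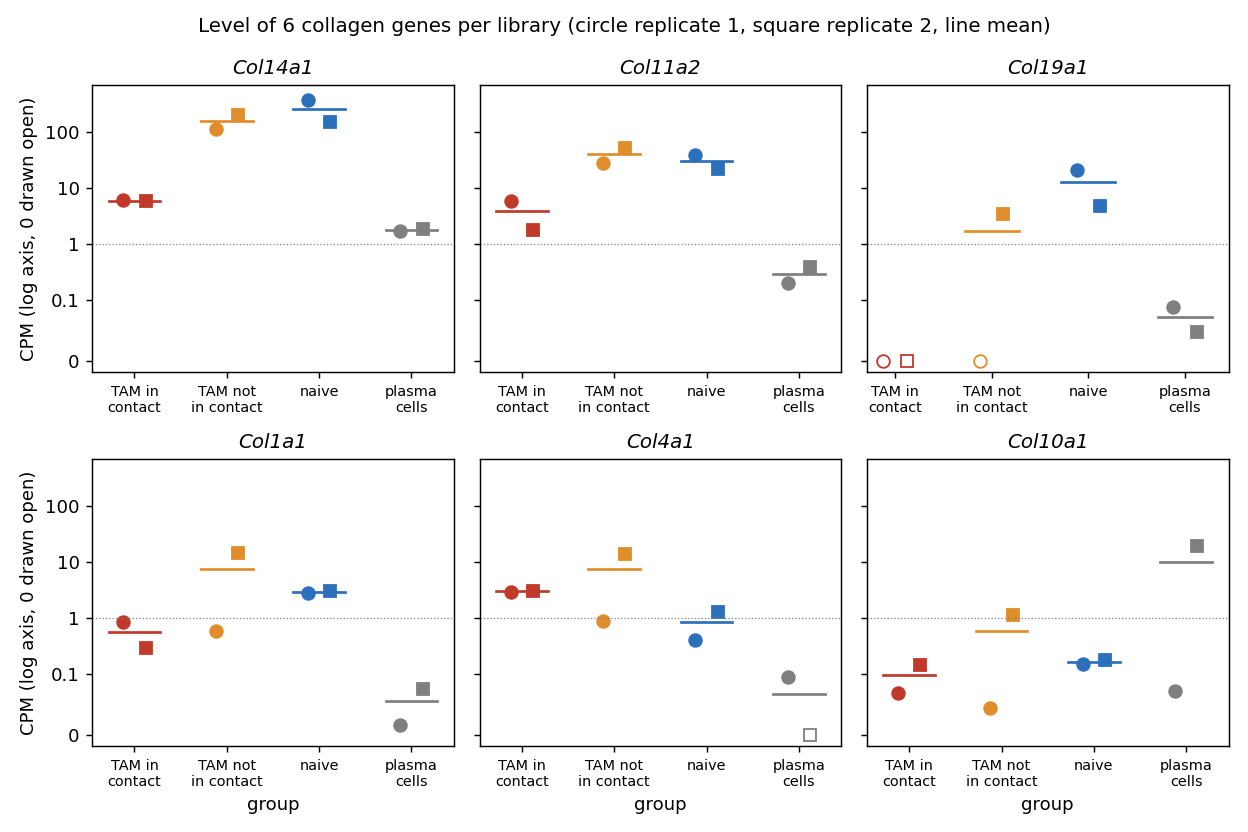
CPM of 6 collagen genes in each library on a log axis, with group means as lines, replicate 1 as circles, replicate 2 as squares and values of 0 drawn open at the bottom. The dotted line marks 1 CPM. Col14a1 and Col11a2 are low in contact TAM, Col1a1 and Col4a1 are highest in the second library of non-contact TAM, and Col10a1 in the second plasma cell library.

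Stromal fibrillar collagens were present at low levels, and apart from Col11a2 their sum was 4.27 and 3.89 CPM in contact TAM, 2.81 and 39.5 CPM in non-contact TAM, and 7.96 and 12.1 CPM in naive macrophages. Leaving Col11a2 out of the class was decided after its values were seen. Col1a1, the major chain of collagen I in bone, was at 0.854 and 0.285 CPM in contact TAM, 0.580 and 14.5 CPM in non-contact TAM, and 2.77 and 3.05 CPM in naive macrophages. Its second chain Col1a2 was at 0.202 and 0.214 CPM in contact TAM, 1.93 and 6.22 CPM in non-contact TAM, and 0.363 and 1.04 CPM in naive macrophages. For both genes the highest value was in the second library of non-contact TAM, and Col1a1 overlapped between contact TAM and non-contact TAM.

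Col3a1, the collagen of reticular fibres, was at 0.292 and 0.119 CPM in contact TAM, 0 and 4.64 CPM in non-contact TAM, and 0.533 and 0 CPM in naive macrophages. Col5a1, a collagen V chain that starts fibril assembly, was at 1.75 and 2.63 CPM in contact TAM, 0 and 1.10 CPM in non-contact TAM, and 1.60 and 2.77 CPM in naive macrophages. Here contact TAM lay within the range of naive macrophages and above non-contact TAM. Its partner Col5a3 was at 0.0674 and 0.380 CPM in contact TAM, 0 and 2.48 CPM in non-contact TAM, and 0.576 and 3.57 CPM in naive macrophages. Col5a2 reached 1.61 CPM in the second library of non-contact TAM and at most 0.0692 CPM in the other macrophage libraries. Col27a1, a fibrillar collagen of cartilage, was at 1.10 and 0.237 CPM in contact TAM, 0.290 and 2.13 CPM in non-contact TAM, and 2.09 and 1.63 CPM in naive macrophages.

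Of the 11 fibrillar collagens 7 were tested, and edgeR called none of them in any comparison. Col2a1, Col5a2, Col11a1 and Col24a1 had too few counts to be tested. Few genes of any kind were called by edgeR: 0% in contact over non-contact TAM, 0.219% in contact TAM over naive macrophages and 0% in non-contact TAM over naive macrophages. DESeq2 called Col1a1 and Col1a2 lower in contact over non-contact TAM, where 7.14% of all genes were. Contact TAM over non-contact TAM gave log2 fold changes of -3.68 ± 1.43 for Col1a1 and -4.24 ± 0.98 for Col1a2 (adjusted p 0.276 and 0.175 by edgeR's quasi-likelihood test). The Col1a1 value rests on 1 library: without the second of non-contact TAM its log2 fold change was -0.07. For non-contact TAM over naive macrophages the log2 fold change of Col1a1 was 1.48 with that library and -2.15 without it, and neither was called.

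Some markers of stromal cells moved with these genes, and others did not. In the second library of non-contact TAM the bone matrix gene Bglap3 was at 34.1 CPM, Alpl of osteoblasts at 50.1 CPM and Cxcl12 of marrow stroma at 48.4 CPM. In the other 5 macrophage libraries the same genes reached at most 0.533, 5.25 and 3.67 CPM. The 11 osteoblast markers summed to 23.5 and 37.0 CPM in contact TAM, 16.3 and 101 CPM in non-contact TAM, and 20.4 and 14.6 CPM in naive macrophages.

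Of the 12 fibroblast markers 5 were highest in the second library of non-contact TAM, among them Dcn at 13.6 CPM, against at most 0.555 CPM elsewhere. The list as a whole was not: it summed to 853 and 569 CPM in contact TAM, 341 and 436 CPM in non-contact TAM, and 860 and 1235 CPM in naive macrophages. Of the chondrocyte markers 4 of 8 detected were highest in that library, and Prg4 of joint surface cells alone made up 128 of their 135 CPM there. Acan, Sox9, Matn3 and Hapln1, also of cartilage, had no count in it, nor had Pdgfra and Lum of mesenchymal cells. The part of these cells in the collagen values was not tested.

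Of the type IV chains Col4a1 and Col4a2 were detected in macrophages, and edgeR called neither in any comparison. Col4a1, which pairs with Col4a2 in the common basement membrane network, was at 2.90 and 3.09 CPM in contact TAM, 0.870 and 13.9 CPM in non-contact TAM, and 0.405 and 1.28 CPM in naive macrophages. Both libraries of contact TAM lay above both naive libraries and between those of non-contact TAM. Col4a2 was at 3.30 and 2.25 CPM in contact TAM, 0.556 and 6.92 CPM in non-contact TAM, and 3.24 and 1.14 CPM in naive macrophages, with overlap throughout. The log2 fold change of Col4a1 in contact TAM over naive macrophages was 2.00 ± 1.25 and did not pass edgeR's test (adjusted p 0.490). Over non-contact TAM it was -1.25 ± 1.20 with the second library of that group and 1.74 without it. The start regions of Col4a1 and Col4a2 lie head to head and share 22 exon bases, and the kit does not mark the strand.

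The 12 endothelial markers summed to 45.6 and 13.2 CPM in contact TAM, 40.8 and 126 CPM in non-contact TAM, and 14.6 and 14.7 CPM in naive macrophages. Plvap of marrow sinusoids was at 36.2 CPM in the second library of non-contact TAM and at most 2.39 CPM in the other macrophage libraries. Kdr, a receptor of vascular endothelial growth factor, alone made up 26.7 CPM of the sum in the first library of contact TAM and was at 0.759 CPM in the second. The part of endothelial cells in the collagen values was not tested.

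**Figure D4:**
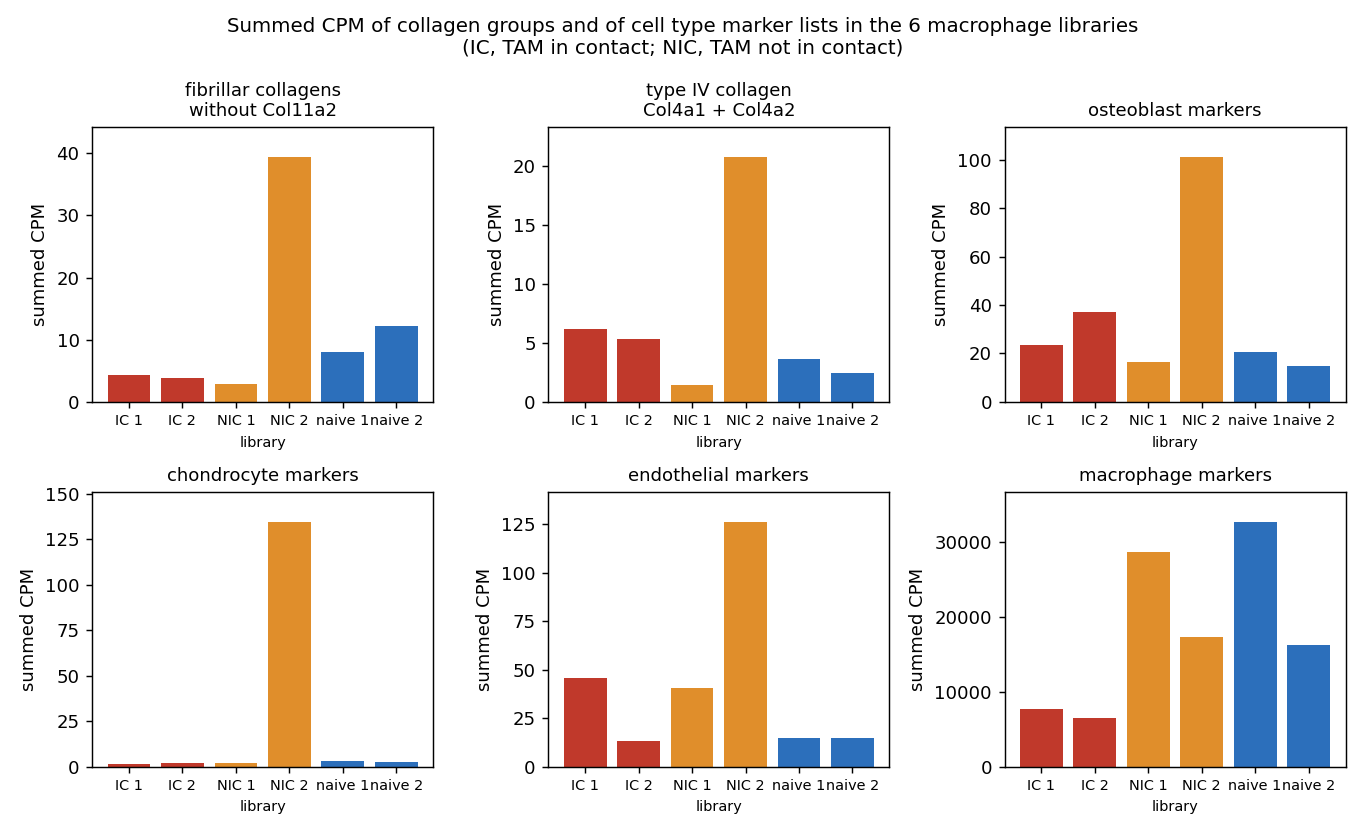
Summed CPM per macrophage library of the fibrillar collagens without Col11a2, of Col4a1 and Col4a2, and of 4 lists of cell type markers, each panel on its own linear axis from 0. The second library of non-contact TAM is highest in all panels but that of macrophage markers, with 39.5 CPM of fibrillar collagens and 20.8 CPM of type IV collagen. Not drawn are lists where it was not highest: marrow reticular stroma (478 against 1466 CPM) and fibroblast markers (436 against 1235 CPM). The same held for pericyte and smooth muscle (16.3 against 19.3 CPM) and Schwann cell markers (33.1 against 75.4 CPM).

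In the remaining classes most detected genes stayed at low levels, with Col25a1 the highest. The network collagen of vessel walls Col8a1 reached 2.03 CPM, Col10a1 of growth plate cartilage 1.13 CPM, Col6a1 of the beaded filaments around cells 1.35 CPM, and Col7a1 of the anchoring fibrils of skin 1.64 CPM, each in the second library of non-contact TAM. The transmembrane collagen Col25a1, first known from amyloid plaques of brain, was at 4.20 and 0 CPM in contact TAM, 9.50 and 0 CPM in non-contact TAM, and 0.171 and 0 CPM in naive macrophages. It was thus found in both TAM libraries labelled mouse 1 and in neither labelled mouse 2. Col17a1, a hemidesmosome collagen of skin, was at 0.270 and 0.759 CPM in contact TAM, 1.86 and 1.10 CPM in non-contact TAM, and 0.448 and 0 CPM in naive macrophages. Col15a1, a proteoglycan collagen of basement membranes, was at 0.539 and 0.403 CPM in contact TAM, 1.60 and 1.22 CPM in non-contact TAM, and 0.128 and 0.658 CPM in naive macrophages. Non-contact TAM was highest without overlap for Col17a1 and Col15a1, and edgeR called neither (adjusted p 0.457 and 0.403 over naive macrophages).

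Among plasma cells the first library held 1 collagen gene at 1 CPM or more and the second held 5. Immunoglobulin genes held 67.3% of the counts in the first library and 70.4% in the second, which lowers the CPM of all other genes there. Col10a1 was at 0.0489 CPM in the first and 19.6 CPM in the second, Col2a1, the main collagen of cartilage, at 0.0489 and 10.2 CPM, the fibril-associated Col9a1 of cartilage at 0 and 1.30 CPM, and its partner Col9a3 at 0.0367 and 1.15 CPM. Cartilage collagens other than Col11a2, a grouping made after these values were seen, made up 89.1% of the collagen counts in the second library and 4.15% in the first. Other cartilage genes were higher there too: Acan was at 0.0122 CPM in the first library and 1.23 CPM in the second, Chad at 0.0611 and 1.51 CPM, and Hapln1 at 0.0856 and 1.02 CPM. The 9 chondrocyte markers summed to 1.01 CPM in the first and 5.92 CPM in the second, with 4 of the 9 at 1 CPM or more in the second and Sox9, a transcription factor of cartilage cells, at 0 in both. Their part in the result was not tested. Col10a1 shares 18 exon bases with Nt5dc1 on the opposite strand, a gene that reached 66.8 CPM in a macrophage library. The part of Nt5dc1 reads in the Col10a1 values was not tested.

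Col14a1 was at 1.71 and 1.85 CPM in the plasma cell libraries. These levels were 0.653% and 0.706% of the naive mean, beside medians of 0.562% and 0.697% for the 16 macrophage markers in the same libraries. The 2 tables were deposited separately, and levels set across them were not tested.

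Of the 44 collagen genes 25 had enough counts to be tested, 19 of them detected in a macrophage library. The calls by edgeR were 0 in contact TAM over non-contact TAM, 1 in contact TAM over naive macrophages, and 0 in non-contact TAM over naive macrophages. The shares of all genes called were 0%, 0.219% and 0%, with 2653, 2270 and 2354 genes at an unadjusted p under 0.05. By DESeq2, 6, 2 and 1 collagen genes were called in these comparisons, against 10.4%, 7.92% and 8.18% of all genes. In contact TAM over non-contact TAM, Col11a2, Col14a1, Col1a1, Col1a2 and Col20a1 were lower, where 7.14% of all genes were, and Col16a1 was higher, where 3.28% were. Over naive macrophages Col11a2 and Col14a1 were lower, where 4.85% of all genes were and 3.07% were higher. In non-contact TAM over naive macrophages Col16a1 was lower, where 3.75% of all genes were and 4.43% were higher.

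The count of called collagen genes moved with the fit, and so did the share of all genes called. In contact TAM over non-contact TAM it was 10 with no filter on low counts (7.2% of all genes called) and 9 without the first library of non-contact TAM (8.86%). Without the second it was 0 by edgeR (0%) and 4 by DESeq2 (8.45%), and bias-adjusted quasi-dispersions gave 0 (0.142%). The 9 called without the first library were Col11a2, Col14a1, Col16a1, Col19a1, Col1a1, Col1a2, Col20a1, Col22a1 and Col2a1.

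In contact TAM over naive macrophages it was 5 with no filter (5.53%), 3 in a fit of the 4 libraries compared (4.47%), 3 without the first library of non-contact TAM (3.13%), and 1 without the second by edgeR (2.92%) and 4 by DESeq2 (14%). It was 1 with bias-adjusted quasi-dispersions (0.361%), and 0 with RLE size factors (0.142%), library totals (0.116%), a minimum count of 50 (0.209%) and a replicate block (0.367%). In non-contact TAM over naive macrophages it was 6 with no filter (5.96%) and 2 without the first library of non-contact TAM (2.8%), Col2a1 and Col4a1. Without the second it was 1 by edgeR (1.66%), Col5a1, and 3 by DESeq2 (13.1%), Col16a1, Col5a1 and Col5a3. The replicate block gave 0 in both other comparisons, where 0.18% and 0% of all genes were called.

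The median log2 fold change of the 25 was -1.57 in contact TAM over non-contact TAM, -0.27 in contact TAM over naive macrophages and 0.88 in non-contact TAM over naive macrophages, beside -0.00, 0.00 and 0.06 over all genes. Without the second library of non-contact TAM the medians that use this group were -0.03 and -1.47. In contact TAM over non-contact TAM, 7 of 25 lay lower without overlap and 2 higher, where 22.3% and 24.4% of all genes did. Over naive macrophages 8 lay lower and 2 higher, against 36.7% and 23% of all genes. Non-contact TAM lay lower than naive macrophages without overlap for 4 and higher for 3, against 28.9% and 16.6%. These comparisons share libraries, so they are not independent of each other.

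Of the genes that act on collagen, edgeR called none in contact TAM over non-contact TAM. DESeq2, which called 10.4% of all genes and 7.14% as lower, called 9 of 20 tested genes of collagen biosynthesis and secretion (1 higher, 8 lower). Among them the prolyl hydroxylase P3h3 was at 2.81 and 1.31 CPM in contact TAM, against 13.5 and 22.3 CPM in non-contact TAM, and the collagen chaperone Serpinh1 at 1.08 and 0.261 CPM, against 7.30 and 6.83 CPM. Of 12 genes of processing and crosslinking DESeq2 called 4, all lower, among them Pcolce2, which enhances removal of the procollagen end, with a log2 fold change of -4.44 ± 0.58 and an adjusted p of 0.0888 by edgeR. Of 9 genes of collagen uptake and degradation it called 2, both lower, Mrc1 and the protease Ctsl. Of 9 basement membrane partners it called 3, all lower, and Lamb2, a laminin chain, was at 0.360 and 0.498 CPM in contact TAM, against 4.35 and 36.7 CPM in non-contact TAM. Of 8 partners of fibrils, among them small leucine-rich proteoglycans, it called 2, both lower. None of 8 collagen receptor genes was called by either tool in this comparison.

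Among these lists edgeR called Mrc1 alone in contact TAM over naive macrophages. DESeq2, which called 7.92% of all genes, called 3 of 20 biosynthesis genes (all lower), 3 of 12 of processing (1 higher, 2 lower), 2 of 8 receptors (both higher), 2 of 9 of uptake (1 higher, 1 lower), 1 of 8 fibril partners (higher) and 2 of 9 basement membrane partners (both lower). The receptors were Ddr1 and Itgb1, a kinase receptor and an integrin chain. Fibril partners were negative for 6 and positive for 2, with a median log2 fold change of -0.45, and basement membrane partners for 7 and 2, with a median of -2.72. In non-contact TAM over naive macrophages edgeR called 0, and DESeq2, which called 8.18% of all genes, called 2, 3, 2, 2, 1 and 1 genes of the lists in the same order, all higher. The receptors were Ddr1 and Gp6 of platelets.

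Sparc and Fn1 had the smallest p in their lists over naive macrophages in at least 1 comparison. Contact TAM had the matrix protein gene Sparc at 16.7 and 7.95 CPM, against 2.48 and 0.415 CPM in naive macrophages, and fibronectin (Fn1) at 207 and 320 CPM, against 36.1 and 50.4 CPM. Neither passed edgeR's test (adjusted p 0.237 and 0.109), and DESeq2 called both. Non-contact TAM had Sparc at 181 and 61.2 CPM and Fn1 at 278 and 136 CPM, also called by DESeq2 and not by edgeR (adjusted p 0.219 for each). These are genes whose levels in both TAM groups lay above both naive libraries, while Col14a1 and Col11a2 lay below them in contact TAM.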

How the data were processed

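The authors deposited whole-number read counts per gene for 6 macrophage and 2 plasma cell libraries in separate tables. Per the labels, cDNA came from a SMART-Seq v4 kit for low RNA input, a kit type that does not mark the strand. STAR, featureCounts, DESeq2 1.26, mm10 and GRCm38 are named in the submitters' processing notes, with no role or order. Annotation release and strand setting were not given in the sources used here. Identifiers of the macrophage table were matched without version to GENCODE M21, for 47224 of 47643. No column was left without a sample.

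One model of edgeR 4.0.16 (R 4.3.3) with quasi-likelihood tests and default settings took all 6 macrophage libraries. TMM factors scaled them, and filterByExpr (minimum count 10, minimum total 15) kept 15522 genes, with 3 residual degrees of freedom. P-values were adjusted by Benjamini-Hochberg over all genes, with calls under 0.05. Standard errors are the log2 fold change over the root of F. Alternatives used DESeq2 1.42.0, limma 3.58.1, other scalings and filters, a replicate block and libraries left out. Other steps ran in Python 3.11.15 with matplotlib 3.10.9, scipy 1.17.1, pandas 2.3.3 and numpy 2.4.6. The test was checked on simulated counts, where at the spread of these libraries it missed many of the changed genes. The criterion for passing that check was revised after its first version was not met.

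Every collagen gene at 1 CPM or more in a library is named, the others are listed, and of each other list up to 4 genes with the smallest p in a comparison, and markers at 0 or under 1 CPM, could be named. Stromal markers with high values in 1 library were named after their values were seen. Fold changes were recomputed under each alternative for all 19 detected and tested collagen genes, with a bound in place of a fit where a group was at 0. Both choices were made after values were seen, and the first replaced a shorter list picked by hand. The members and lists were chosen with earlier results of these data known.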

Additional observations from a re-analysis of the deposited data

Results flagged for a closer look

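The plasma cell libraries enter no test, and 5 collagen genes were at 1 CPM or more there, above the limit that a count of 0 allows (3 counts, or 0.0367 and 0.0782 CPM). Others also exceeded that limit at less than 1 CPM, among them Col9a2 at 0.939 CPM and Col11a1 at 0.678 CPM in the second library and Col20a1 at 0.770 CPM in the first. Col10a1 was at 19.6 CPM, Col2a1 at 10.2 CPM, Col9a1 at 1.3 CPM and Col9a3 at 1.15 CPM, all in the second plasma cell library. Col14a1 was at 1.71 CPM in the first and 1.85 CPM in the second. In the first library Col10a1 and Col2a1 were at 0.0489 CPM each, Col9a1 at 0 and Col9a3 at 0.0367 CPM.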

How the results depend on the processing

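Fold changes were recomputed for 53 combinations of gene and comparison under 812 alternatives in all, and 717 kept the direction and the side of the threshold, 34 passed it where the value reported had not, 9 no longer passed it and 52 changed sign. Contact over non-contact TAM gave 0, against 6 by DESeq2, 10 with no filter and 4 by DESeq2 without the second library of non-contact TAM, a setting added after the data were seen, with a range of 0 to 9 over libraries left out. Contact TAM over naive macrophages gave 1, against 2 by DESeq2, 5 with no filter, 3 in a fit of the 4 libraries compared, 4 by DESeq2 without the second library of non-contact TAM, and 0 with limma-voom, RLE size factors, library totals, a minimum count of 50 and the replicate block, with a range of 0 to 3. Non-contact TAM over naive macrophages gave 0, against 1 by DESeq2, 6 with no filter and 3 by DESeq2 without the second library of non-contact TAM, with a range of 0 to 2. The cause of these changes was not tested.

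Detection in a macrophage library (24 genes) was 28 at 0.5 CPM, 16 at 2 CPM, 34 at 10 counts, 2 when 1 CPM was asked of every library, 24 with immunoglobulin genes left out of the total, and 15 to 24 with a library left out. Detection in a plasma cell library (5 genes) was 8 at 0.5 CPM, 2 at 2 CPM, 12 at 10 counts, 1 in every library, 11 with immunoglobulin genes left out of the total, and 1 to 5 with a library left out.

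Replicate numbers were taken not to pair the libraries, since libraries of the same number had correlated deviations of 0.152, 0.0393 and 0.0888 and the libraries labelled mouse 2 are not from 1 animal. The TAM libraries labelled mouse 1 both had Xist (17.5 and 20.3 CPM) and Ddx3y at 0, so these genes do not tell whether they are from 1 animal. With the replicate block the collagen genes called were 0 in each comparison, and 28, 57 and 0 genes were called over all genes. The block turned the log2 fold changes of Col6a1 (0.22) and Col8a1 (0.11) in contact TAM over naive macrophages, and of Col20a1 (-0.35) in non-contact TAM over naive macrophages.

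Limma-voom changed the sign of Col3a1 (0.90) and Col8a1 (0.65) in contact TAM over naive macrophages, of Col3a1 (0.08), Col4a2 (0.62), Col5a3 (0.26) and Col8a1 (0.01) in contact over non-contact TAM, and of Col1a1 (-0.02), Col20a1 (-0.82), Col4a2 (-0.07) and Col6a1 (-0.18) in non-contact TAM over naive macrophages. DESeq2 without the second library of non-contact TAM did so for Col27a1 (1.17), Col4a1 (1.77), Col4a2 (2.30) and Col5a3 (5.65) in contact over non-contact TAM, and for Col1a1 (-2.19), Col20a1 (-2.69) and Col4a2 (-1.87) in non-contact TAM over naive macrophages. Over libraries left out by edgeR, a range of log2 fold changes crossed 0 for the following genes. In contact over non-contact TAM the ranges were Col25a1 -10.58 to 9.39, Col27a1 -2.23 to 1.15, Col3a1 -4.42 to 6.12, Col4a1 -2.15 to 1.74, Col4a2 -1.26 to 2.28, Col5a3 -4.10 to 6.25, Col6a1 -7.69 to 4.56 and Col8a1 -4.22 to 5.75. In contact TAM over naive macrophages the ranges were Col15a1 -0.31 to 2.01, Col25a1 -4.77 to 9.31, Col3a1 -1.22 to 6.0, Col4a2 -0.07 to 1.44, Col5a1 -0.19 to 0.62, Col6a1 -7.03 to 1.66 and Col8a1 -1.64 to 5.63. In non-contact TAM over naive macrophages the ranges were Col14a1 -1.09 to 0.18, Col1a1 -2.15 to 2.39, Col20a1 -2.64 to 1.10, Col25a1 -4.88 to 10.53, Col27a1 -2.51 to 0.26, Col3a1 -6.46 to 9.41, Col4a2 -1.83 to 1.81, Col5a3 -9.27 to 1.18, Col6a1 -7.07 to 4.87, Col7a1 -0.51 to 3.80 and Col8a1 -5.84 to 8.22. With 2 libraries a group, a lone library is assumed to vary like the others.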
